A study of Mus musculus with 4 samples.

Results

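The genes described here are 29 lysosomal genes: proteases, glycosidases, sulfatases, lipid hydrolases and their cofactors, membrane proteins and the transcription factor Tfeb. They were taken by gene symbol from an RNA sequencing table of 24341 genes, and all 29 symbols were found. The samples were of the mouse line CAD (Cath.-a-differentiated), catecholaminergic cells that put out neurites when serum is removed. Per the labels, all cultures were serum-free for 5 days, and for 24 h they received DMSO, the solvent control that the titles call untreated, or 20 µM of ACSS2i, a quinoxaline urea inhibitor of the acetyl-CoA synthetase ACSS2. There were 2 libraries per group, named DMSO replicates 1 and 2 and ACSS2i replicates 1 and 2. The labels name 1 cell line and 1 inhibitor and do not state whether the libraries of a group are separate cultures. The p-values therefore reflect only the spread of these libraries, which may be technical.

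Lysosomes are acidic organelles in which proteins, glycans and lipids brought in by endocytosis and autophagy are broken down, each by its own set of hydrolases. Neurons divide rarely or not at all and depend on this breakdown to clear worn components, and inherited loss of single hydrolases causes storage diseases that often affect the brain. Many lysosomal genes share a promoter sequence, the CLEAR element, which is bound by TFEB and its relatives. Nuclear ACSS2 has been described in other cells as a partner of TFEB that supplies acetyl-CoA at such promoters, and the comparison gives the levels of these genes when the enzyme was inhibited.

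The CLEAR element is an extended E-box, and the promoters are shown because they are the stretch through which these genes are thought to share control. RefSeq promoter windows (GRCm38.p6, 250 bases before to 50 after each annotated start) were matched for 25 of the 29 genes and not for Asah1, Ctsb, Galns and Laptm4b. The palindrome TCACGTGA was found in 4 of the 25 (16.0%), against 1.12% of the 27025 genes with a window. GTCACGTG, searched on both strands (reverse complement CACGTGAC), was found in 8 of the 25 (32.0%), against 2.55% of genes, and these 8 include the 4 with the palindrome. The shared core CACGTG was in 11 of the 25 (44.0%), against 8.09% of genes. Below, 30 bases around 1 match per gene are given 5′ to 3′ on the gene's strand, with the matched letters in capitals.
Ctsd: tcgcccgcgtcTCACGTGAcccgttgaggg
Ctsa: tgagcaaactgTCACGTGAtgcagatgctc
Gla: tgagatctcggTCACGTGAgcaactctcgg
Mcoln1: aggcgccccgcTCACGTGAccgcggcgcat
Lamp1: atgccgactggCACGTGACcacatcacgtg
Glb1: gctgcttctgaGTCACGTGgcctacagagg
Naglu: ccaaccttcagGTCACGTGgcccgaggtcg
Sgsh: ggcctgccgtgCACGTGACcgtggggagcg

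The first 4 of these lines hold the palindrome and the last 4 the one-sided form. The Ctsd stretch lies at chr7:142387908-142387937 on the minus strand, with the match at position -99 from the start. The Ctsa stretch lies at chr2:164833749-164833778 on the plus strand, with the match at -13. The Gla stretch, on the minus strand of chrX:134601182-134601211, has its match at -195, and the Mcoln1 stretch, on the plus strand of chr8:3500462-3500491, at -46. The one-sided matches of Lamp1 (chr8:13159122-13159151, plus strand), Glb1 (chr9:114401017-114401046, plus strand), Naglu (chr11:101070008-101070037, plus strand) and Sgsh (chr11:119355521-119355550, minus strand) lay at -28, -50, -75 and -29. A match of letters describes the sequence and shows no binding in these cells.

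Expression values were taken as FPKM, fragments scaled to transcript length and to the mapped fragments of the library. The libraries differed in depth: read from the steps between low values, they held a nominal 11400000 and 3340000 reads in DMSO and 7720000 and 9810000 in ACSS2i, so that DMSO replicate 2 was the least precise. The test was limma on log2(FPKM + 1) over the 11486 genes that averaged 1 FPKM or more, and log2 fold changes on this scale understate those of low genes. Of all tested genes, 3 passed a Benjamini-Hochberg adjusted p of 0.05, which is 0.0261%. Both inhibitor libraries lay below both DMSO libraries in 18.3% of tested genes and above them in 19%, and 47.8% had a negative log2 fold change. A comparison of 2 libraries with 2 cannot give an exact permutation p below 0.333.

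Of the 29 lysosomal genes, 28 passed the expression filter and were tested. By limma 0 passed in either direction, with adjusted p from 0.613 (Lamp2) to 0.996 (Ctsb). At an unadjusted p under 0.05 there were 4 lower (Ctsd, Ctsf, Sgsh and Lamp2) and 0 higher, against 3.67% and 3.29% of all tested genes. The log2 fold change was negative in 22 of the 28 (78.6%, against 47.8% of all tested genes). Its median was -0.32, beside a median of 0.020 over all tested genes. Both inhibitor libraries lay below both DMSO libraries in 10 of the 28 (35.7%, against 18.3% of tested genes) and above them in 0 (against 19%). These 10 were Ctsd, Ctsf, Ctsl, Ctsz, Glb1, Naglu, Sgsh, Psap, Lamp2 and Laptm4a. The other 18 overlapped between groups.

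The median hid a difference between the inhibitor libraries. The median distance of the 28 genes from the DMSO mean was -0.16 (log2) for ACSS2i replicate 1 and -0.53 for ACSS2i replicate 2. ACSS2i replicate 2 lay below both DMSO libraries in 23 of the 28, against 37.0% of all tested genes. ACSS2i replicate 1 lay below both in 12, against 36.8% of all tested genes, and above both in 10, against 38.4% of all tested genes, so that both shares for replicate 1 were near those of all genes. In all 10 genes where ACSS2i replicate 1 was above both DMSO libraries, ACSS2i replicate 2 was below both, a split seen in 11.4% of all tested genes (35.7% of the 28). Without ACSS2i replicate 2 the log2 fold change was negative in 15 of the 28, with a median of -0.16, against 49.2% of all tested genes negative. Without ACSS2i replicate 1 it was negative in 25, with a median of -0.53, against 48.8% of all tested genes negative.

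**Figure D1:**
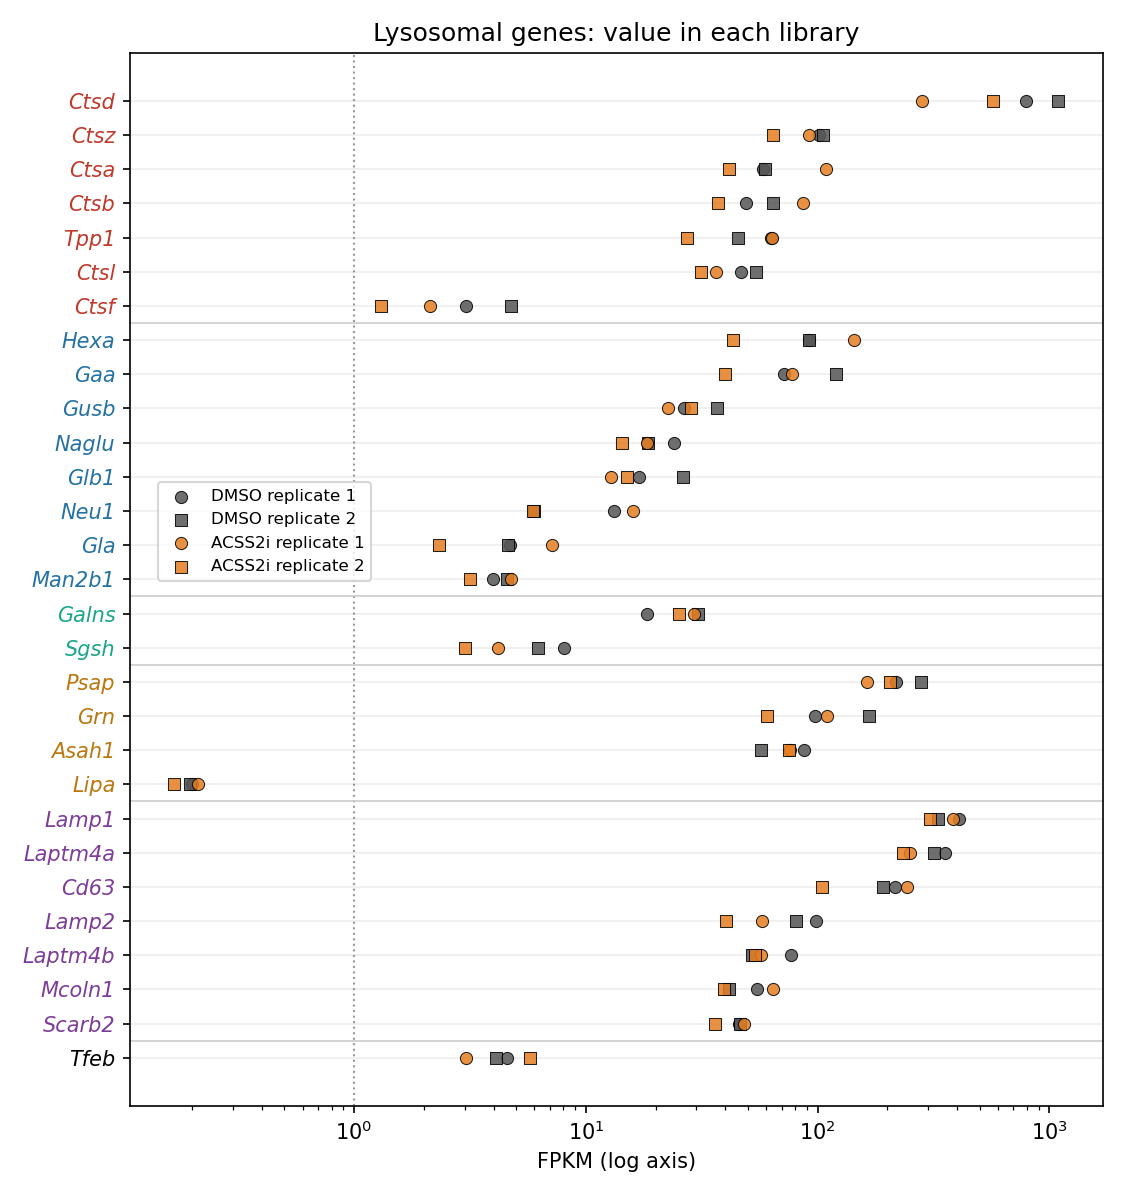
FPKM of the 29 lysosomal genes in each of the 4 libraries (log axis), ordered by role and level; grey symbols are DMSO and orange ACSS2i, circles replicate 1 and squares replicate 2, and the dotted line is the filter of 1 FPKM. Ctsd has the highest mean level, from 282 to 1093 FPKM (Lamp1, at 386, is above it in ACSS2i replicate 1), and Lipa alone lies under the filter, near 0.2 FPKM.

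Of the 3 larger roles, the proteases had the most negative median. Cathepsin D (Ctsd), the main aspartic protease of the lysosome, was on average over the 4 libraries the most abundant of the 29 transcripts, at 792 and 1093 FPKM under DMSO against 282 and 568 FPKM under ACSS2i. Both inhibitor libraries lay below both DMSO libraries, and ACSS2i replicate 1 was the lower of the pair. The group means were 942 ± 213 FPKM for DMSO and 425 ± 202 FPKM for ACSS2i (SD, n = 2 each), with a log2 fold change of -1.21 ± 0.42 (SE; limma adjusted p = 0.635), the most negative of the 28. Ctsd lies at chromosome 7, 142375911 to 142388038, on the minus strand (GRCm38, GENCODE M21), and its exons overlap those of another annotated gene on the same strand, Gm49369.

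Ctsd carried much of the summed level. It made up 25.9% and 32.7% of the summed FPKM of the 29 genes in DMSO, 11.4% in ACSS2i replicate 1 and 26.9% in ACSS2i replicate 2. The sum over the 29 was 3055 and 3340 FPKM under DMSO against 2465 and 2110 FPKM under ACSS2i. Without Ctsd it was 2264 and 2247 FPKM under DMSO, 2183 in ACSS2i replicate 1 and 1542 in ACSS2i replicate 2. The lower sum of ACSS2i replicate 1 was thus mostly its Ctsd, while ACSS2i replicate 2 was lower in the other genes as well.

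Among the cysteine cathepsins, 3 lay lower in both inhibitor libraries. Cathepsin F (Ctsf), the least abundant protease, was at 3.05 and 4.77 FPKM under DMSO against 2.13 and 1.31 FPKM under ACSS2i (log2 fold change -0.85 ± 0.33, SE; limma adjusted p = 0.703). Cathepsin L (Ctsl), an endopeptidase that also trims other cathepsins, was at 47.0 and 54.1 FPKM under DMSO against 36.6 and 31.4 FPKM under ACSS2i (-0.56 ± 0.24). Cathepsin Z (Ctsz), a carboxypeptidase, was at 101 and 106 FPKM under DMSO against 91.4 and 64.0 FPKM under ACSS2i (-0.43 ± 0.27). For Ctsl and Ctsz the DMSO libraries were close together, and ACSS2i replicate 2 was the lower inhibitor library.

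The other 3 proteases had inhibitor libraries on either side of DMSO. Cathepsin B (Ctsb), an endopeptidase and dipeptidase, was at 49.2 and 64.1 FPKM under DMSO, 86.2 in ACSS2i replicate 1 and 37.2 in ACSS2i replicate 2. Cathepsin A (Ctsa), a serine carboxypeptidase that also protects the glycosidases Glb1 and Neu1 in a complex, was at 58.4 and 59.1 FPKM under DMSO, 108 in ACSS2i replicate 1 and 41.3 in ACSS2i replicate 2. Tpp1, which cuts tripeptides from protein ends, was at 62.9 and 45.2 FPKM under DMSO against 63.8 and 27.3 FPKM under ACSS2i. In each, the inhibitor libraries bracketed both DMSO libraries, so their mean log2 fold changes of 0.014, 0.19 and -0.34 describe neither library. Over the 7 proteases the median log2 fold change was -0.43, with 5 negative (71.4%, against 47.8% of all tested genes). Of the 7, 4 lay lower without overlap (57.1%, against 18.3% of all tested genes). Without ACSS2i replicate 2, 4 of the 7 were negative, against 49.2% of all tested genes.

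**Figure D2:**
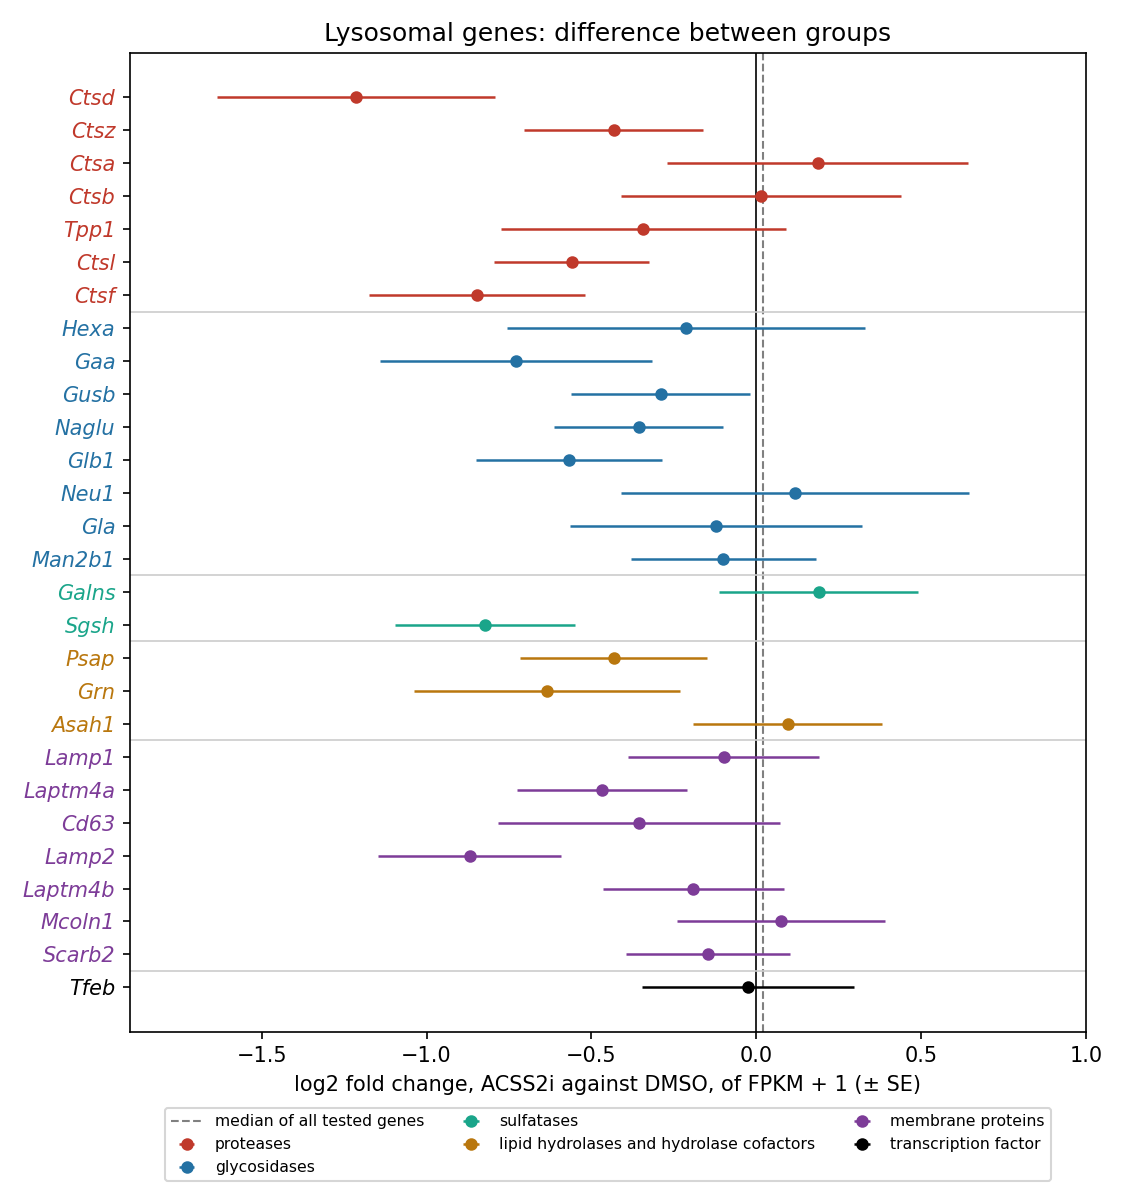
Log2 fold change of FPKM + 1, ACSS2i against DMSO, with limma's SE, for the 28 tested lysosomal genes, coloured by role; the dashed line is the median of all 11486 tested genes (0.020). Ctsd lies farthest left at -1.21, Lamp2, Ctsf and Sgsh lie between -0.82 and -0.87, and the 6 genes right of 0 reach 0.19.

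The 8 glycosidases had a median log2 fold change of -0.25, with 7 negative (87.5%, against 47.8% of all tested genes). Of the 8, 2 lay lower without overlap (25%, against 18.3% of all tested genes). Without ACSS2i replicate 2, 4 of the 8 were negative, against 49.2% of all tested genes. Beta-galactosidase (Glb1), which removes terminal galactose from gangliosides and glycoproteins, was at 17.0 and 26.2 FPKM under DMSO against 12.9 and 15.0 FPKM under ACSS2i (-0.57 ± 0.28, SE; limma adjusted p = 0.785). Naglu, an alpha-N-acetylglucosaminidase of heparan sulfate breakdown, was at 24.0 and 18.6 FPKM under DMSO against 18.4 and 14.3 FPKM under ACSS2i. The higher Naglu value in ACSS2i and the lower one in DMSO were almost equal. The log2 fold change of Naglu was -0.36 ± 0.26 (SE).

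In 4 glycosidases ACSS2i replicate 1 was the highest of all 4 libraries and ACSS2i replicate 2 the lowest. Hexa, the alpha subunit of the beta-hexosaminidase that degrades gangliosides, showed this most: it was at 91.7 and 91.8 FPKM under DMSO, 144 in ACSS2i replicate 1 and 43.3 in ACSS2i replicate 2. The inhibitor libraries differed by 1.71 on the log2 scale, while the DMSO libraries were almost identical. Alpha-galactosidase A (Gla), which cleaves galactose from glycolipids, was at 4.71 and 4.62 FPKM under DMSO, 7.15 in ACSS2i replicate 1 and 2.32 in ACSS2i replicate 2. The sialidase Neu1 was at 13.3 and 5.97 FPKM under DMSO against 16.0 and 5.89 FPKM under ACSS2i, and the alpha-mannosidase Man2b1 at 3.97 and 4.56 FPKM under DMSO against 4.76 and 3.17 FPKM under ACSS2i. The Neu1 libraries were far apart in both groups, by 1.03 on the log2 scale within DMSO and 1.30 within ACSS2i.

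The last 2 glycosidases overlapped in other ways. Acid alpha-glucosidase (Gaa), which breaks down glycogen, was at 71.6 and 120 FPKM under DMSO, 77.3 in ACSS2i replicate 1 and 39.9 in ACSS2i replicate 2 (-0.73 ± 0.41, SE). Its lowest library was ACSS2i replicate 2 and its highest DMSO replicate 2. Beta-glucuronidase (Gusb) was at 26.4 and 36.9 FPKM under DMSO against 22.6 and 28.5 FPKM under ACSS2i (-0.29 ± 0.27). Here ACSS2i replicate 1 was the lowest library.

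The 2 sulfatases lay on different sides of 0. Sgsh, the heparan N-sulfatase, acts in the same heparan sulfate pathway as Naglu and was at 8.05 and 6.21 FPKM under DMSO against 4.19 and 3.01 FPKM under ACSS2i. Its groups did not overlap, with means of 7.13 ± 1.30 and 3.60 ± 0.836 FPKM (SD, n = 2 each) and a log2 fold change of -0.82 ± 0.27 (SE; limma adjusted p = 0.618). The gene lies at chromosome 11, 119343425 to 119355536, on the minus strand. Galns, which removes sulfate from keratan and chondroitin sulfate, was at 18.4 and 30.4 FPKM under DMSO against 29.2 and 25.2 FPKM under ACSS2i. Its inhibitor values lay between the DMSO values, and its log2 fold change of 0.19 ± 0.30 (SE) was the highest of the 28 genes.

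Among the lipid hydrolases and hydrolase cofactors, prosaposin (Psap), the precursor of the saposins that present sphingolipids to their hydrolases, was at 218 and 280 FPKM under DMSO against 164 and 205 FPKM under ACSS2i (-0.43 ± 0.28, SE). Both inhibitor libraries lay below both DMSO libraries. Progranulin (Grn), a secreted and lysosomal glycoprotein whose loss causes neurodegeneration, was at 97.1 and 167 FPKM under DMSO, 110 in ACSS2i replicate 1 and 60.7 in ACSS2i replicate 2 (-0.64 ± 0.40). Its groups overlapped, since ACSS2i replicate 1 lay between the DMSO libraries. Acid ceramidase (Asah1) was at 87.5 and 57.1 FPKM under DMSO against 75.9 and 75.2 FPKM under ACSS2i, with both inhibitor values inside the DMSO range.

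Lysosomal acid lipase (Lipa), which frees cholesterol from its esters, stood apart from the rest by its level. It was at 0.201 and 0.197 FPKM under DMSO against 0.213 and 0.167 FPKM under ACSS2i, under the filter, and was not tested. These values correspond to a nominal 6.83 and 1.95 reads in DMSO and 4.88 in each inhibitor library, so that no difference was detectable at this depth. Among the tested members the lowest support was a nominal 25.4 reads, for Ctsf in ACSS2i replicate 2, with a counting error of 19.8% of the value.

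The 7 membrane proteins had a median log2 fold change of -0.19, with 6 negative (85.7%, against 47.8% of all tested genes). Of the 7, 2 lay lower without overlap (28.6%, against 18.3% of all tested genes). Without ACSS2i replicate 2, 3 of the 7 were negative, against 49.2% of all tested genes. Lamp2, a highly glycosylated protein of the lysosomal membrane that also serves chaperone-mediated autophagy, was at 98.2 and 80.5 FPKM under DMSO against 57.4 and 40.4 FPKM under ACSS2i. Its groups did not overlap, and its means were 89.3 ± 12.5 and 48.9 ± 12.0 FPKM (SD, n = 2 each). The log2 fold change was -0.87 ± 0.28 (SE; limma adjusted p = 0.613), the smallest p of the 28 genes. Lamp2 lies on chromosome X, 38401357 to 38456454, on the minus strand.

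Lamp1, the structural relative of Lamp2, was at 409 and 330 FPKM under DMSO against 386 and 305 FPKM under ACSS2i, with a log2 fold change of -0.098 ± 0.29 (SE). The Lamp1 groups overlapped, whereas those of Lamp2 were apart, although whether the 2 genes differed in response was not tested. Laptm4a, a small membrane protein of late endosomes and lysosomes, was at 353 and 317 FPKM under DMSO against 251 and 233 FPKM under ACSS2i (-0.47 ± 0.26), also without overlap. Its paralog Laptm4b was at 76.7 and 52.1 FPKM under DMSO against 57.1 and 53.5 FPKM under ACSS2i (-0.19 ± 0.28), inside the DMSO range.

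The other 3 membrane proteins split between the inhibitor libraries as Hexa did. The tetraspanin Cd63 was at 217 and 192 FPKM under DMSO, 242 in ACSS2i replicate 1 and 105 in ACSS2i replicate 2. Scarb2, a membrane glycoprotein that also carries cargo to lysosomes, was at 45.8 and 46.3 FPKM under DMSO against 48.0 and 36.0 FPKM under ACSS2i. The cation channel Mcoln1, which releases calcium from lysosomes, was at 54.8 and 41.7 FPKM under DMSO against 64.0 and 39.6 FPKM under ACSS2i. The split was wide in Cd63, at 1.21 on the log2 scale between the inhibitor libraries, and narrow in Scarb2, at 0.40.

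Tfeb itself, the transcription factor of the CLEAR element, was expressed at a low level, at 4.55 and 4.09 FPKM under DMSO, 3.05 in ACSS2i replicate 1 and 5.75 in ACSS2i replicate 2 (-0.025 ± 0.32, SE; limma adjusted p = 0.993). It was the only one of the 28 genes in which ACSS2i replicate 1 was below and ACSS2i replicate 2 above both DMSO libraries. The transcript level does not show how much of the protein was in the nucleus, which is where its activity is mainly set.

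**Figure D3:**
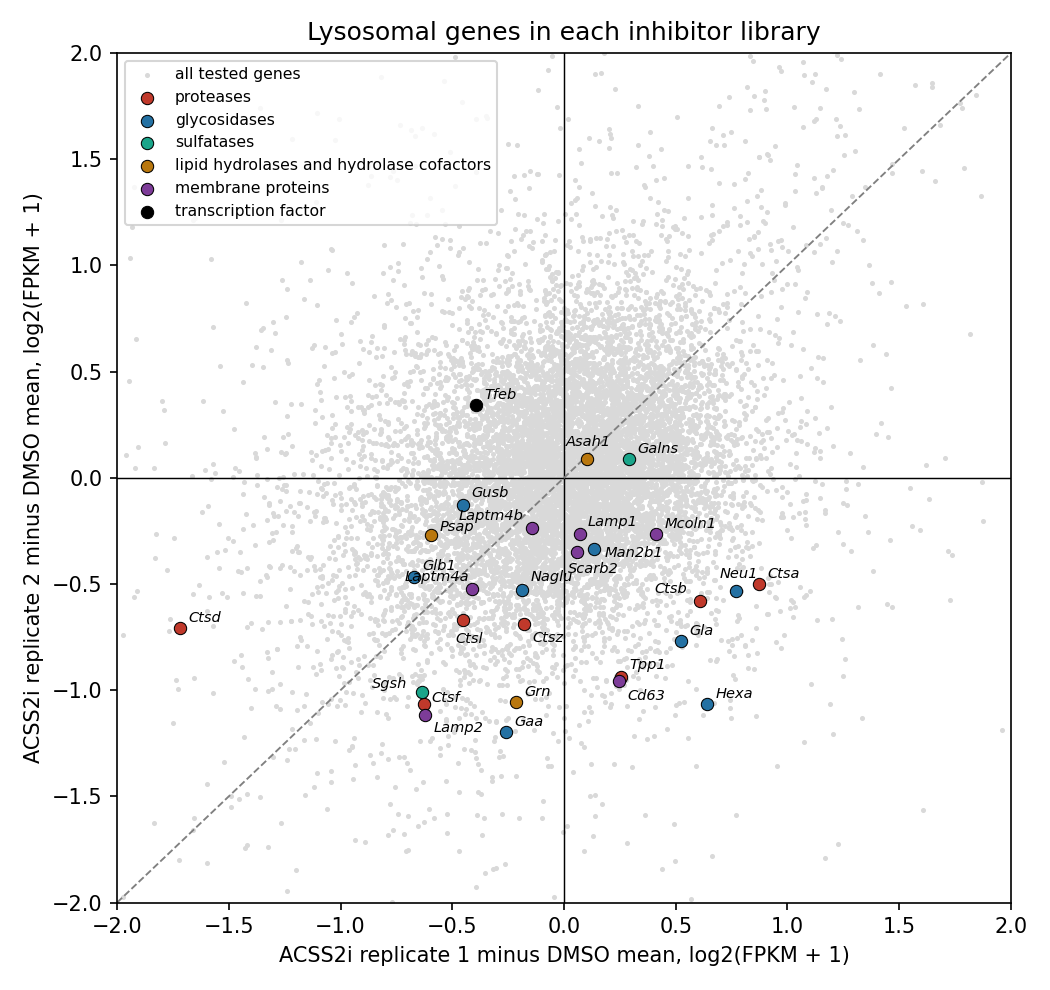
Difference from the DMSO mean in log2(FPKM + 1), ACSS2i replicate 1 on the horizontal and ACSS2i replicate 2 on the vertical axis; coloured points are the 28 tested lysosomal genes by role, grey points all tested genes, of which 223 lie outside the axes, and the dashed line marks equal values. Of the 28 genes, 25 lie below 0 in ACSS2i replicate 2 and 15 left of 0 in ACSS2i replicate 1, with Hexa, Ctsa, Ctsb, Gla, Neu1, Tpp1 and Cd63 at the lower right.

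The summed level of each role differed in how the inhibitor libraries lay. The proteases summed to 1113 and 1426 FPKM under DMSO against 671 and 771 FPKM under ACSS2i, without overlap. Ctsd was the largest single contributor to this sum in each library, and ACSS2i replicate 1 was the lower inhibitor library. The lack of overlap rested on Ctsd. Without it, the summed proteases of ACSS2i replicate 1 lay above, and those of ACSS2i replicate 2 below, both DMSO libraries. The lipid hydrolases and cofactors summed to 403 and 505 FPKM under DMSO against 349 and 341 FPKM under ACSS2i, with the inhibitor libraries close together. The glycosidases summed to 253 and 309 FPKM under DMSO, 303 in ACSS2i replicate 1 and 152 in ACSS2i replicate 2. The membrane proteins summed to 1255 and 1060 FPKM under DMSO, 1106 in ACSS2i replicate 1 and 812 in ACSS2i replicate 2. Glycosidases and membrane proteins thus overlapped between groups through ACSS2i replicate 1. Their median log2 fold changes of -0.43 for proteases, -0.25 for glycosidases and -0.19 for membrane proteins were not tested against each other. Without ACSS2i replicate 2 these medians were -0.18, -0.026 and 0.057, so the sign for membrane proteins rested on that library.

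Genes with and without the CLEAR-type letters overlapped in their values. Of the 8 genes whose promoter window held GTCACGTG, 4 (Ctsd, Glb1, Naglu and Sgsh) lay lower without overlap, and the median log2 fold change was -0.24. Of the 16 tested genes whose window lacked it, 6 lay lower without overlap, and the median was -0.39. Among these 16, Ctsf, Ctsl and Gaa held the shorter core CACGTG, with log2 fold changes of -0.85, -0.56 and -0.73. The order of the medians depended on the letters chosen: split by the core, the genes that held it had the more negative median. Over all tested genes the share lower without overlap was 18.3%. The 4 genes with the palindrome ranged from Ctsd at -1.21 through Gla at -0.12 and Mcoln1 at 0.075 to Ctsa at 0.19. Absence of these letters says nothing of sites outside the window.

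Other lysosomal genes were described with lists of their own, and by limma 0 genes of these lists passed. At an unadjusted p under 0.05 there were 1 of 23 hydrolases (Acp2) and 1 of 15 genes of sorting (Gnptg), both lower. There were 0 genes of the other membrane proteins, of nutrient sensing and of autophagy. Over all tested genes 3.67% were lower and 3.29% higher at this threshold. Of 29 further hydrolases and cofactors, 23 were tested and 20 were negative (median -0.34), against 47.8% of all tested genes negative. Of these 23, 8 lay lower and 1 higher without overlap (34.8% and 4.35%, against 18.3% and 19% of all tested genes). Acp2, a lysosomal acid phosphatase, was at 7.65 and 8.26 FPKM under DMSO against 4.54 and 4.29 FPKM under ACSS2i (-0.72), and the sphingomyelinase Smpd1 was at 25.6 and 18.4 FPKM under DMSO against 16.5 and 12.8 FPKM under ACSS2i (-0.54). The beta-mannosidase Manba and the phospholipase-like Plbd2 had log2 fold changes of -0.44 and -0.54, both without overlap. Without ACSS2i replicate 2 the median of the list was 0.038.

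Of 24 further membrane proteins and transporters, 19 were tested and 13 were negative (median -0.21), against 47.8% of all tested genes negative. Of these 19, 6 lay lower and 0 higher without overlap (31.6% and 0%, against 18.3% and 19% of all tested genes). Cd164, a sialomucin of endosomes and lysosomes, was at 131 and 104 FPKM under DMSO against 84.4 and 79.4 FPKM under ACSS2i (-0.51). The potassium and proton channel Tmem175 and the lipid transporter Abca2 had -0.51 and -0.48. The cholesterol exporter Npc1 was at 8.76 and 13.4 FPKM under DMSO against 8.31 and 6.29 FPKM under ACSS2i (-0.53), also without overlap. Without ACSS2i replicate 2 the median of the list was 0.020.

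The genes that deliver hydrolases to lysosomes lay on both sides of 0. Of the 15 tested genes of mannose 6-phosphate tagging and sorting, 6 were negative (median 0.15). Of these 15, 2 lay lower and 3 higher without overlap (13.3% and 20%, against 18.3% and 19% of all tested genes). Gnptg, a subunit of the enzyme that starts the mannose 6-phosphate tag on hydrolases, was at 47.2 and 46.4 FPKM under DMSO against 26.3 and 32.2 FPKM under ACSS2i (-0.67). Gnptab, which encodes the catalytic subunits of that enzyme, overlapped, with -0.57, and -0.071 without ACSS2i replicate 2. The retromer subunit Vps35, which retrieves sorting receptors, was at 81.7 and 80.9 FPKM under DMSO against 107 and 108 FPKM under ACSS2i (0.40), and the adaptor subunit Ap3b1 had 0.45. The median of the list was negative without DMSO replicate 2 and without ACSS2i replicate 1 (-0.10 in both).

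Of 17 tested relatives of TFEB and genes of nutrient sensing on the lysosome, 8 were negative (median 0.015, and -0.16 without ACSS2i replicate 1). Of these 17, 3 lay lower and 2 higher without overlap (17.6% and 11.8%, against 18.3% and 19% of all tested genes). Tfe3, which binds the same element as TFEB, was at 19.5 and 23.7 FPKM under DMSO against 16.8 and 16.2 FPKM under ACSS2i (-0.36), above Tfeb in every library. Mitf was near the filter, at 1.61 and 0.871 FPKM under DMSO against 2.42 and 0.359 FPKM under ACSS2i. The kinase Mtor had -0.27, and Lamtor2 and Rragd, of the complexes that hold it at the lysosome, had 0.55 and 0.31, each without overlap. Of the 24 autophagy genes 16 were positive (median 0.098, and -0.025 without ACSS2i replicate 1). Of these 24, 2 lay lower and 5 higher without overlap (8.33% and 20.8%, against 18.3% and 19% of all tested genes). The autophagy receptors Optn and Nbr1, the conjugating enzyme Atg3 and the ubiquitin-like Gabarap had 0.80, 0.50, 0.39 and 0.56, and of these the Gabarap groups overlapped. Optn was at 26.8 and 28.1 FPKM under DMSO, 73.9 in ACSS2i replicate 1 and 31.8 in ACSS2i replicate 2. Each of these 4 was nearer DMSO in ACSS2i replicate 2: without ACSS2i replicate 1 the log2 fold changes were 0.21 for Optn, 0.29 for Nbr1, 0.22 for Atg3 and 0.19 for Gabarap, and without ACSS2i replicate 2 they were 1.40, 0.70, 0.56 and 0.93.

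**Figure D4:**
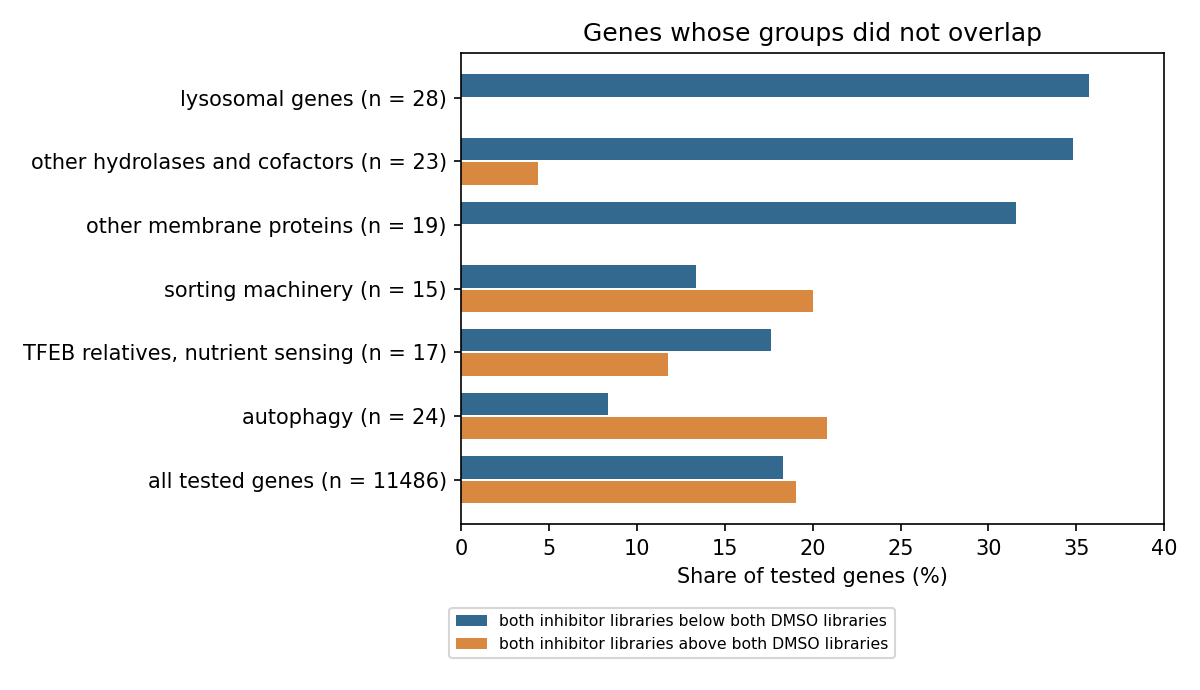
Share of tested genes in each list whose groups did not overlap, with both inhibitor libraries below (blue) or above (orange) both DMSO libraries. The 3 lists of lysosomal proteins have 31.6% to 35.7% lower, against 18.3% of all tested genes, and at most 4.35% higher, against 19%.

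Other gene groups also differed between the libraries. All 10 proliferation genes tested were higher without overlap, against 19% of all tested genes. Bub1, Aurkb, Mcm5, Rrm2 and Ccnb1 had DMSO means of 0.10 to 0.81 FPKM. For these, passing the filter required a higher mean in ACSS2i, so their direction was set in advance. Mki67, Top2a, Cdk1, Pcna and Mcm2 had DMSO means of 1.45 to 45.9 FPKM, above the filter. Relative to the DMSO mean, the median of the 10 lay at 1.46 in ACSS2i replicate 1. In ACSS2i replicate 2 it lay at 2.56. By median, proliferation values were thus higher in the inhibitor library whose lysosomal values were lower, a comparison of 2 libraries. Gene by gene, ACSS2i replicate 2 was the lower inhibitor library in 23 of the 28 lysosomal genes, against 48.1% of all tested genes. In Ctsd, Glb1, Gusb, Psap and Tfeb ACSS2i replicate 1 was the lower. Of the 8 tested secretory granule genes 7 were negative (median -0.44), against 47.8% of all tested genes negative. Their median distance from the DMSO mean was -0.72 in ACSS2i replicate 1 and -0.33 in ACSS2i replicate 2. The order of these medians was opposite to that of the lysosomal genes. Gene by gene it was not, since ACSS2i replicate 2 was the lower inhibitor library in 5 of the 8. The 9 neuronal markers summed to 1481 and 1460 FPKM under DMSO, 1006 in ACSS2i replicate 1 and 2054 in ACSS2i replicate 2. Of the 9, 2 lay lower and 0 higher without overlap, against 18.3% and 19% of all tested genes. The part of these in the lysosomal values was not tested, and in bulk RNA fewer cells of a type and less RNA per cell cannot be told apart.

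Macrophages and microglia are rich in lysosomes. Their 10 markers in the table summed to 1.00 and 1.61 FPKM under DMSO against 0.813 and 0.868 FPKM under ACSS2i. Among them Adgre1, C1qa and C1qb were at the floor of 0.01 in all 4 libraries, and Tyrobp was the highest at 1.52 FPKM. Summed markers of astrocytes (6 genes) ran from 0.184 to 0.532 FPKM in DMSO and from 0.531 to 1.45 FPKM in ACSS2i. Those of fibroblasts (6 genes) ran from 0.428 to 0.689 FPKM over the 4 libraries, with Col1a2, Col3a1 and Lum at the floor in all. The 6 oligodendrocyte markers summed to 4.40 to 5.65 FPKM, with Mbp from 2.10 to 2.92 FPKM and Mag at the floor in all 4 libraries. Each of these 4 lists of other cell types summed to at most 5.65 FPKM in any library. The part of other cell types in the lysosomal values was not tested.

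In GENCODE M21, 10 of the 29 genes have exons that overlap those of another gene, namely Ctsd, Ctsa, Ctsb, Ctsl, Ctsz, Hexa, Glb1, Sgsh, Grn and Lamp1, and Cd63 has a named pseudogene. For Ctsd, Ctsl and Glb1 an overlapping gene lies on the same strand: Gm49369, the processed pseudogene Gm49230 and Tmppe. Counting by strand would not separate these. For the other genes the overlap is with the opposite strand only. Whether the authors' quantification used strand is not given in the sources used here. Reads of overlapping genes on either strand may thus have been counted with the members.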

How the data were processed

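Polyadenylated RNA was made into ScriptSeq v2 libraries and sequenced on 1 NextSeq lane, per the labels' protocols. Per the submitters' processing notes, the tools were STAR 2.3.0, Cufflinks 2.2.1, Cuffdiff and bcl2fastq 02.14.01.07, and the build was mm10. The sources used here give neither the annotation nor what "adjusted" means in the table's name. The deposited values were taken as FPKM because of these tools; the header names no unit. The floor was 0.01, and 1 gene with a failed value was left out. From these values limma 3.58.1 (R 4.3.3, mean-variance trend, two-sided, Benjamini-Hochberg over 11486 genes) was run on log2(FPKM + 1) for genes that averaged 1 FPKM or more, and was tested on simulated data. Standard errors are limma's moderated ones. Relative depths of 1, 0.292, 0.675 and 0.857 (DMSO replicates 1 and 2, ACSS2i replicates 1 and 2) were the most common ratios of low values. Nominal reads scale these with lengths of genes with a single GENCODE M21 transcript, cover counting error only, and could be wrong by a whole factor. For each member the longest coding transcript was used. Whole counts were not recovered for all genes, so no count test was run. Members and lists were chosen with earlier results of these data known. All 29 members were named, and from each other list but proliferation and secretory granule up to 4 genes with the smallest unadjusted p, plus Tfe3, Mitf and Npc1; some other genes under this rule are not reported here. Alternatives numbered 11: pseudocounts, filters, scalings, a replicate block and leaving out each library.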

Additional observations from a re-analysis of the deposited data

How the results depend on the processing

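Under all 11 alternatives 0 of the lysosomal genes passed. The median of the members stayed negative, from -0.53 without ACSS2i replicate 1 to -0.16 without ACSS2i replicate 2, and quantile normalization (-0.34) or scaling to a common median (-0.31) moved it little, while the median of all tested genes stayed between 0 and 0.032. Of the 28 genes, 13, all negative, kept their sign under every alternative, and 15 did not. These 13 were the 10 genes lower without overlap, with Gaa, Gusb and Grn. Where groups do not overlap, leaving out a library or changing the pseudocount cannot turn the sign, so this count adds little for those genes. The share of all tested genes that kept their sign was not computed. The number of all tested genes that passed was 6 when 0.1 was added before the log, 0 when 5 was added, 0 with low genes kept in and from 13 to 26 when 1 library was left out, where the spread comes mostly from the intact pair and the lone library is assumed to vary like the others. At an unadjusted p under 0.05 there were 795 with the pseudocount of 5 and 1342 without a filter.

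With the replicate block 8 of all genes and 0 of the members passed. The numbers are shared by the labels only: deviations of same-numbered libraries correlated at -0.017 across genes, so the block was not taken as a pairing.

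Leaving out 1 library gave from 12 to 23 members lower and from 1 to 10 higher without overlap, against 29.1% to 37.0% lower and 31.0% to 39.0% higher of all tested genes in these fits; comparisons of 1 library with 2 lack overlap more often by construction. In these fits the medians ran from -0.53 to -0.026 for glycosidases, from -0.61 to -0.21 for lipid hydrolases and cofactors (-0.22 without a filter, which adds Lipa), from -0.44 to 0.057 for membrane proteins, from -0.48 to 0.038 for other hydrolases, from -0.10 to 0.11 for sorting, from -0.16 to 0.27 for TFEB relatives, from -0.025 to 0.33 for autophagy and from -0.72 to -0.33 for secretory granule genes. For proliferation genes a pseudocount of 0.1 gave a median of 3.19 and one of 5 gave 0.90.

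Leaving out 1 library turned the sign of single genes, and the log2 fold changes then ran from -0.50 to 0.87 for Ctsa, -0.58 to 0.61 for Ctsb, -0.94 to 0.26 for Tpp1, -1.07 to 0.64 for Hexa, -0.77 to 0.52 for Gla, -0.53 to 0.77 for Neu1, -0.33 to 0.13 for Man2b1, -0.16 to 0.54 for Galns, -0.21 to 0.40 for Asah1, -0.27 to 0.070 for Lamp1, -0.96 to 0.25 for Cd63, -0.35 to 0.057 for Scarb2, -0.26 to 0.41 for Mcoln1, -0.46 to 0.083 for Laptm4b, -0.39 to 0.34 for Tfeb and -0.70 to 0.63 for Mitf. Quantile normalization turned Ctsb to -0.014 and Tfeb to 0.0024, and the pseudocount of 5 turned Mitf to 0.017. Beyond fewer samples, the cause was not tested. Depth limits Lipa, Ctsf, Gla and Tfeb most.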
